A study of Rattus norvegicus with 56 samples.

Results

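The 34 genes described here encode the liver's machinery for burning fatty acids: the carnitine shuttle, mitochondrial and peroxisomal beta oxidation, electron transfer, ketone production and the nuclear receptor PPAR alpha with some of its known targets. They were taken by gene symbol from a table of 17337 genes counted in the livers of 56 rats. All 34 symbols were found once, and all 34 passed the filter on low counts that left 11047 genes for testing.

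Fatty acids entering a liver cell are bound by a carrier protein, activated to acyl-CoA, and moved into mitochondria as carnitine esters, a step controlled by CPT1A. Each turn of beta oxidation then shortens the chain through a dehydrogenase, a hydratase, a second dehydrogenase and a thiolase, while peroxisomes shorten very long chains. PPAR alpha, a receptor activated by fatty acids, is known to switch on many of these genes in rodent liver during fasting and high-fat feeding.

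The animals were adult Sprague-Dawley offspring killed on day 180. CON dams ate regular chow. HFhf dams had a Western diet and 25% fructose in the drinking water, started on gestation day 11. IUGR dams received 50% fewer calories from gestation day 10 until delivery, which models intrauterine growth restriction, and after birth went back to chow in IUGR-RC or on to the HFhf diet in IUGR-HFhf. The labels give the dams' diets and do not say what the offspring ate after weaning. Livers of both sexes were collected at ZT4, in the light, or ZT16, in the dark, of a 12 h light cycle. This made 16 groups, 8 with 3 libraries and 8 with 4. The labels name no litters, so p-values measure only the spread between these libraries, some of which may be littermates. One label calls the tissue mouse liver, while the organism is given as rat.

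Between 5.55 M and 19.1 M reads were counted per library (median 9.17 M), and the 34 genes took 1.08% to 1.90% of them. The 12 hepatocyte markers, Alb among them, summed to 174796 CPM or more in all 56 libraries, and in bulk liver fewer cells of a type and less RNA per cell cannot be told apart. Acta1 of skeletal muscle stood out in male ZT16 HFhf replicate 3 (125 CPM), female ZT4 IUGR-HFhf replicate 2 (20.3 CPM) and female ZT4 IUGR-RC replicate 2 (1310.4 CPM). Female ZT4 IUGR-RC replicate 3 had 135 CPM of the clock gene Dbp, within the range of ZT16 libraries of CON, where some ZT4 libraries of HFhf and IUGR-HFhf also lay, and 2.22 CPM of the clock gene Arntl, the lowest of the ZT4 libraries. Counts that lead a paragraph below were also made without these 4 libraries. The IUGR-RC titles form a number series of their own, and Rmrp, an RNA without a poly(A) tail, ranged from 2.29 to 10.5 CPM, a gene's counts relative to its library's total, in IUGR-RC against 743 to 4072 CPM elsewhere. A batch and the IUGR-RC treatment cannot be told apart.

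Promoter sequences are shown for a gene pair that shares its upstream DNA and rose alike below in the means for HFhf and IUGR-HFhf. Hadha and Hadhb encode the alpha and beta subunits of the mitochondrial trifunctional protein, which carries out the last steps of long-chain oxidation. The pair did not move alike everywhere. In males at ZT4 Hadhb was 173, 170 and 189 CPM in CON and 342, 240, 341 and 350 CPM in IUGR-RC. Hadha was 341, 334 and 343 CPM and 453, 368, 447 and 435 CPM there. In RefSeq's GRCr8 annotation they start head to head on chromosome 6, with their start sites 301 bases apart. The 250 bases before the Hadha start (chr6:31907551-31907800, plus strand) therefore lie upstream of both genes. Capitals mark the closest match, with 3 mismatches, to the element that PPAR alpha is known to bind, 2 copies of AGGTCA with 1 base between. The share of all promoters with a match this close was not counted, and the mark is not evidence of binding.
Hadha and Hadhb: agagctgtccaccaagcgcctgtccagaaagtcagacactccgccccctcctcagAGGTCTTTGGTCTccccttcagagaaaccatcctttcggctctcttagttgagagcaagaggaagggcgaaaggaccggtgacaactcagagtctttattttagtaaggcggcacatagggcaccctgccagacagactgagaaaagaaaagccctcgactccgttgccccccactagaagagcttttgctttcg

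That element was searched on both strands of the 250 bases upstream of the start in the 29 members found in the RefSeq promoter table. Acadl, Acaa2, Decr1, Ech1 and Vnn1 were not among them. No member promoter held it without a mismatch, against 17 of 33469 promoters overall (0.0508%). Allowing 1 of the 12 fixed letters to differ, it was in 2 of 29 member promoters (6.90%) and in 0.368% of all promoters. Those 2 were Fabp1, the fatty acid carrier of the hepatocyte, and Acadvl, the very-long-chain dehydrogenase, shown because they came closest. The Fabp1 window is chr4:104749233-104749305 on the plus strand, and the Acadvl window is chr10:55236706-55236752 on the minus strand. Capitals mark the match, which in Fabp1 reads on the opposite strand. A match in these letters is a description and not evidence of binding.
Fabp1: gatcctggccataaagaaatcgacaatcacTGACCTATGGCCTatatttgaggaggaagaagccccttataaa
Acadvl: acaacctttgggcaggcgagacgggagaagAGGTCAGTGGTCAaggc

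The first comparison asked what the HFhf diet does to these genes. Averaged over the 4 strata (each sex at each time), 17 of the 34 rose and 0 fell, against 7.94% of all genes called. Fold changes were positive for 32 of 34, with a median log2 fold change of 0.25, where the median over all genes was 0.0059. Without the 4 libraries in doubt 18 members were called. With library totals in place of TMM scaling, 11 rose and 1 fell. All tests were edgeR quasi-likelihood tests with Benjamini-Hochberg adjustment over the 11047 genes. Most genes given per library below were picked by test statistic in these same libraries, so a lack of overlap is no further support. The share of all genes without overlap was not counted.

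Vnn1, a pantetheinase known as a PPAR alpha target, had the largest F, the test statistic. Female ZT4 values were 4.49, 8.80 and 12.1 CPM in the CON libraries and 20.6, 23.8 and 45.8 CPM in HFhf. In females at ZT16 it was 2.82, 5.61 and 10.8 CPM in CON and 40.9, 24.1, 24.1 and 17.8 CPM in HFhf. The female groups did not overlap at either time. In males the values were 12.8, 22.6 and 23.7 CPM in CON and 28.4, 30.4 and 31.95 CPM in HFhf at ZT4, again without overlap. At ZT16 they were 11.7, 19.9 and 17.1 CPM and 20.3, 30.3, 25.05 and 36.4 CPM, the lowest HFhf library just above the highest CON one. Vnn1 rose in the mean of strata (log2 fold change 1.33 ± 0.18 (SE), adjusted p = 1.05e-06). The rise passed the test in both female strata and in neither male one, but the difference between the sexes did not pass (-1.26 ± 0.35 SE on the log2 scale, adjusted p = 0.171).

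Acaa1b, a peroxisomal thiolase, came second. Its near-identical neighbour Acaa1a could share reads with it, so the split between them is uncertain. Acaa1b was 37, 51.3 and 50.6 CPM in CON males at ZT16 and 87.4, 88.1, 122 and 130.1 CPM in HFhf. In females at ZT16 it was 27.03, 22.1 and 24.8 CPM in CON and 50.6, 36.99, 45.8 and 56.5 CPM in HFhf. Every HFhf library lay above every CON library in these groups. At ZT4 it was 42.97, 50.3 and 55.3 CPM in CON males and 66.4, 99.3 and 59.6 CPM in HFhf males. ZT4 females had 28.1, 25.8 and 37.7 CPM in CON and 40.02, 62.4 and 53.7 CPM in HFhf, so no stratum overlapped. The mean log2 fold change was 0.88 ± 0.14 (SE, adjusted p = 1.66e-05), and Acaa1a rose by 0.22.

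Among the mitochondrial dehydrogenases, which take the first step of each turn, Acadl (long-chain), Acadvl and Acads (short-chain) rose and Acadm (medium-chain) did not. Acadl was 279, 317 and 352 CPM in CON females at ZT16 and 413, 448, 593 and 462 CPM in HFhf. In males at ZT16 it was 338, 314 and 357 CPM and 391, 482, 566 and 427 CPM. The groups did not overlap in either sex. At ZT4 Acadl was 399, 379.9 and 363 CPM in CON males and 429, 490.0 and 459 CPM in HFhf males. In females at ZT4 it was 298, 291 and 335 CPM and 373, 467 and 420.5 CPM, so no stratum overlapped. Its mean log2 fold change was 0.45 ± 0.07 (SE, adjusted p = 2.30e-05), with 0.27 for Acads and 0.24 for Acadvl. Acadm, by contrast, fell in males at ZT4, from 660.2, 634 and 664 CPM to 406, 488 and 486 CPM (log2 fold change -0.51 ± 0.13 (SE), adjusted p = 0.0477), and its mean of strata was -0.09 (adjusted p = 0.457).

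Both subunits of the trifunctional protein rose by the same amount. Hadha was 241, 268 and 274 CPM in CON females at ZT16 and 382, 355, 399 and 354 CPM in HFhf. Female ZT4 values were 285, 282 and 298 CPM and 326, 356 and 469.9 CPM. Female groups were apart at both times. In males Hadha was 341, 334 and 343 CPM in CON and 406, 364 and 377 CPM in HFhf at ZT4. At ZT16 it was 287, 256 and 341 CPM and 312, 352, 369 and 396 CPM, where the groups overlapped. The log2 fold change of Hadha was 0.34 ± 0.06 (SE, adjusted p = 6.90e-05), and that of Hadhb was 0.34 ± 0.08 (SE, adjusted p = 0.00393). Hadh and Acaa2, which serve shorter chains, had 0.18 and 0.10 and did not pass (adjusted p = 0.186 and 0.627).

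Several members handle the double bonds of unsaturated fatty acids. Ech1, a dienoyl-CoA isomerase, was 60.6, 81.9 and 106 CPM in CON females at ZT16 and 209, 121, 131 and 134 CPM in HFhf, where replicate 1 was highest. ZT4 females had 71.99, 72.97 and 88.5 CPM and 111, 109.6 and 159.5 CPM. The female groups did not overlap. In males Ech1 was 79.3, 97.3 and 91.8 CPM and 104, 149 and 139.5 CPM at ZT4. At ZT16 it was 95.3, 91.8 and 133 CPM and 119, 144, 139.9 and 176 CPM, with overlap. The log2 fold change of Ech1 was 0.63 ± 0.11 (SE, adjusted p = 1.36e-04).

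Eci1, an enoyl-CoA isomerase, was 63.8, 61.7 and 81.3 CPM in CON females at ZT4 and 113, 127 and 155 CPM in HFhf. At ZT16 it was 64.1, 70.7 and 109 CPM and 201, 134, 161 and 129 CPM. Both female pairs were apart. In males it was 106, 149 and 114 CPM and 116, 145 and 177 CPM at ZT4. At ZT16 males had 130.4, 99.7 and 135 CPM and 130.2, 161, 198 and 206 CPM, and both male pairs overlapped. The log2 fold change of Eci1 was 0.66 ± 0.12 (SE, adjusted p = 1.69e-04). Decr1 rose by 0.41 and Eci2 by 0.23, while the peroxisomal reductase Decr2 had 0.22 (adjusted p = 0.156).

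In the carnitine shuttle Cpt1a rose by 0.76, Cpt2 by 0.38 and the carrier Slc25a20 by 0.29 on the log2 scale, and Crat and Crot did not pass. Of the electron carriers that pass electrons to the respiratory chain, Etfdh rose by 0.25, while Etfa and Etfb had 0.08 and 0.07. In peroxisomes the transporter Abcd3 rose by 0.26. Abcd2, Ehhadh, Hsd17b4 and Pex11a did not pass, nor did Fabp1, Acsl1, Bdh1, Pdk4 or Ppara itself (log2 fold change 0.27 ± 0.13 (SE), adjusted p = 0.204). Ppara in HFhf was above CON at ZT4 in both sexes, at 80.8, 93.9 and 78.3 CPM in males and 49.1, 45.5 and 83.4 CPM in females, and overlapped with it at ZT16. Fabp1 was 1419, 1199 and 1166 CPM in CON males at ZT16 and 1689.7, 2624, 2332 and 1344 CPM in HFhf. Its mean log2 fold change was 0.30 ± 0.16 (SE, adjusted p = 0.299).

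Single strata called fewer members. Males had 1 called at ZT4 (0.688% of all genes) and 1 at ZT16 (0.932%), the fall of Acadm and the rise of Acaa1b. Females had 4 that rose at ZT4 (1.16%), namely Cpt1a, Acadvl, Eci1 and Vnn1, and 8 at ZT16 (1.26%), namely Slc25a20, Acadvl, Acadl, Hadha, Eci1, Eci2, Ech1 and Vnn1. No member passed the test of a difference between the sexes, for which 0.0724% of all genes were called, 7 members had an unadjusted p under 0.05 and DESeq2 called 2. The male ZT4 call was lost without any 1 of 5 of the 6 libraries, HFhf replicate 2 being the exception. The male ZT16 call was lost without CON replicate 1 or 2 or HFhf replicate 3 or 4, and joined by another without HFhf replicate 1 or 2. The female ZT4 count was 0 without HFhf replicate 3, which also took the mean over strata to 13, 1 without CON replicate 1, and 2 without CON replicate 2 or 3 or HFhf replicate 1. With library totals the female ZT4 split was 2 up and 2 down. The female ZT16 count fell to 1 without CON replicate 1, to 2 without CON replicate 2, to 4 without HFhf replicate 1 or 3 and to 5 without HFhf replicate 4. Of 8 pancreatic acinar markers, the summed level in females was 61.1 to 212 CPM in CON and 6.29 to 16.5 CPM in HFhf. Nearly all of it was Cpa1, at 59.9 to 209 CPM in CON, while Prss1 and Pnlip did not exceed 0.335 and 0.134 CPM there. Its part in the result was not tested. The summed hepatocyte markers moved with diet as well, from 204270.0 to 253236 CPM in CON females to 248499 to 390458 CPM in HFhf females, and from 174796 to 194286 CPM to 175402 to 240794 CPM in males. Their part in the members' rises was not tested.

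**Figure D1:**
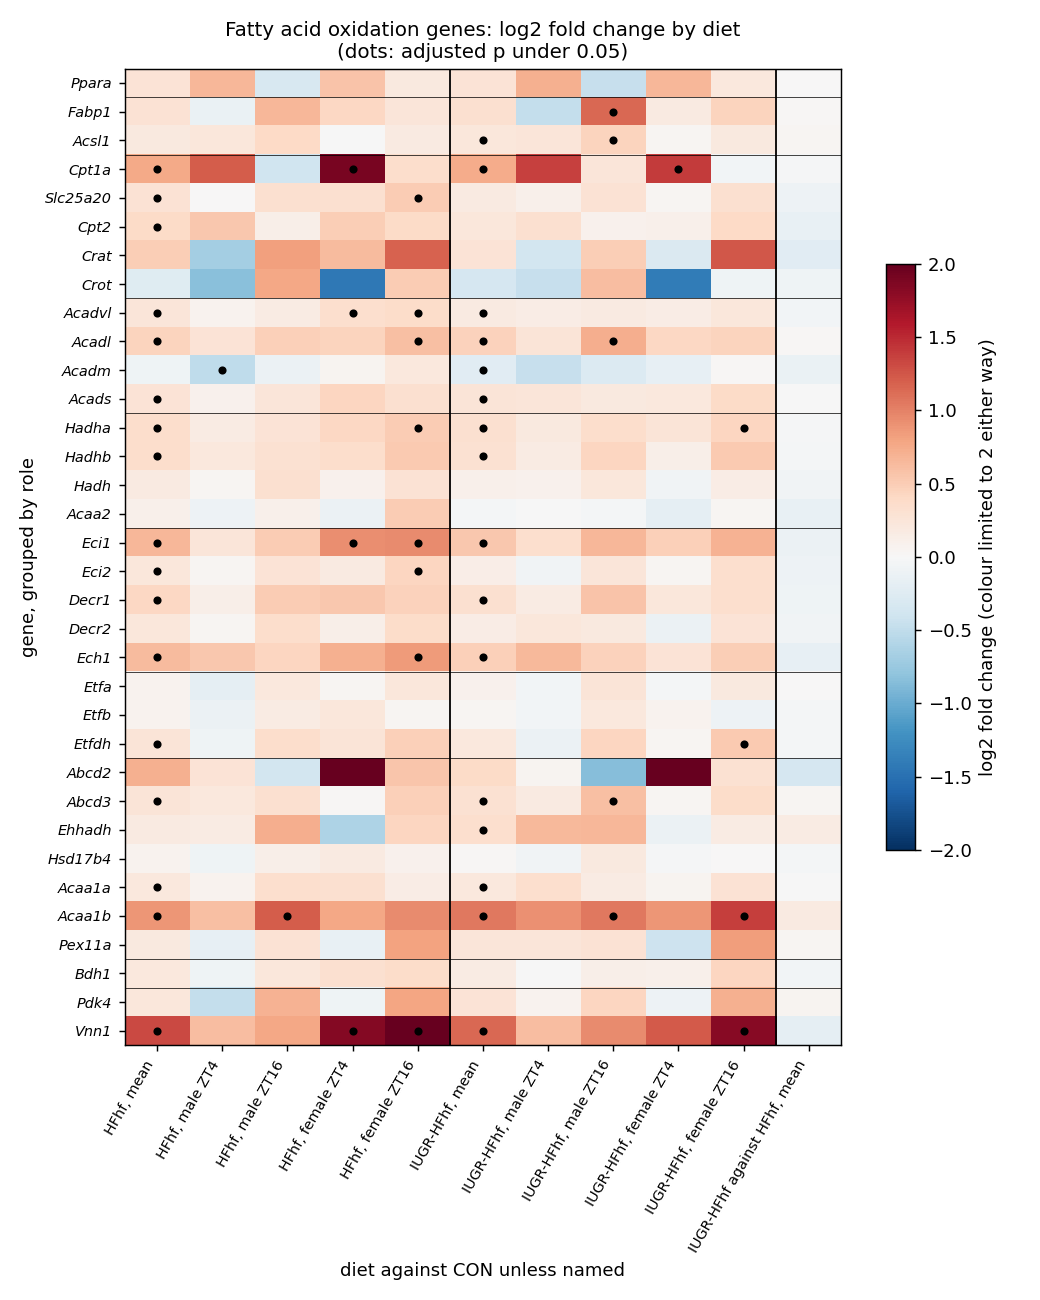
Log2 fold change (colour) of the 34 genes, in rows by role, for HFhf and IUGR-HFhf against CON as the mean of 4 strata and in each stratum, and for IUGR-HFhf against HFhf. Dots mark adjusted p under 0.05; 17 genes rose in the HFhf mean, and the last column, IUGR-HFhf against HFhf, has 0.

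**Figure D2:**
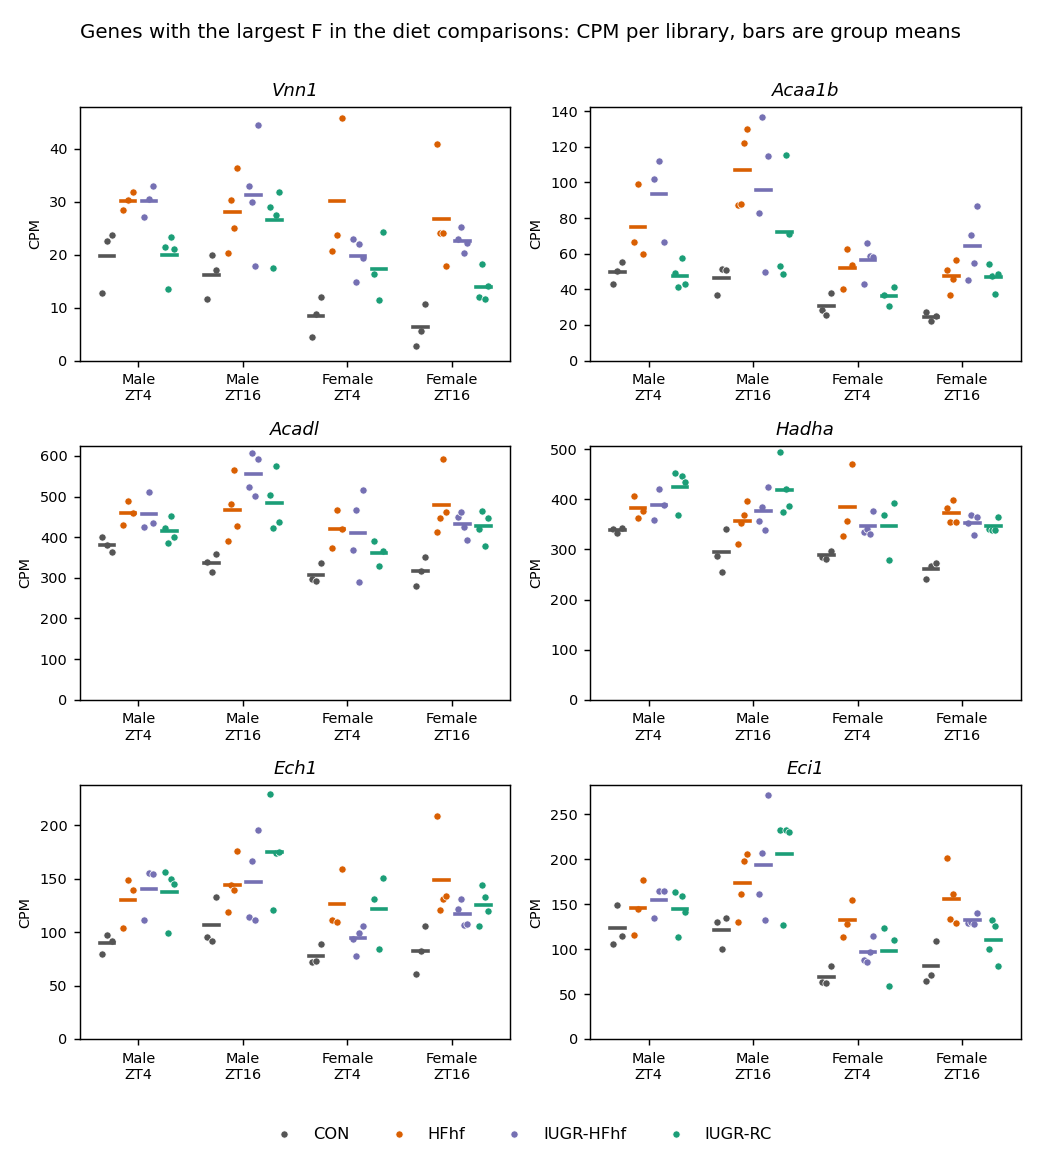
CPM of 6 genes in each library (points) with group means (bars), by sex, time and diet. In females every HFhf library lay above every CON library at both times for all 6 genes. The 6 were picked by their F for diet in these same libraries, so this separation is no further support.

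IUGR-HFhf dams were calorie-restricted before delivery and had the HFhf diet only after birth, while HFhf dams had it from gestation day 11. In IUGR-HFhf against CON 15 of 34 rose and 1 fell as the mean of strata, against 10.5% of all genes. The median log2 fold change was 0.25 where that over all genes was 0.0046. Without the 4 libraries in doubt 18 were called. This comparison uses the same CON libraries as the HFhf one, so the values are given side by side and no overlap is drawn from them. The 5 with the largest F were Acaa1b (1.06 against 0.88 for HFhf), Vnn1 (1.15 and 1.33), Acadl (0.46 and 0.45), Hadha (0.31 and 0.34) and Eci1 (0.54 and 0.66), all log2.

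Acaa1b in IUGR-HFhf was 45.1, 70.4, 54.9 and 86.9 CPM in females at ZT16 and 102, 112 and 66.5 CPM in males at ZT4. In males at ZT16 it was 82.9, 137, 49.5 and 115 CPM, where replicate 3 lay within the CON range. In females at ZT4 it was 42.8, 66.04, 58.7 and 58.3 CPM, above all 3 CON libraries. It rose in the mean of strata (log2 fold change 1.06 ± 0.14 (SE), adjusted p = 4.91e-07). Vnn1 was 23.01, 25.3, 20.3 and 22.2 CPM in IUGR-HFhf females at ZT16 and 22.9, 14.8, 22.05 and 19.4 CPM at ZT4. All of these exceed the CON libraries of the same groups. Male values at ZT4 were 27.1, 30.5 and 32.95 CPM, above CON. At ZT16 males had 32.9, 30.1, 17.9 and 44.5 CPM, where replicate 3 lay within the CON range. The log2 fold change of Vnn1 was 1.15 ± 0.17 (SE, adjusted p = 8.87e-06).

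Acadl was 524, 608, 503 and 591 CPM in IUGR-HFhf males at ZT16, all above CON, and 369, 467, 291 and 517 CPM in females at ZT4, where replicate 3 did not exceed CON. Its mean log2 fold change was 0.46 ± 0.07 (SE, adjusted p = 7.77e-06). Hadha was 353, 368, 328 and 364 CPM in females at ZT16 and 336, 341, 331 and 377 CPM at ZT4, above CON at both times. Male values at ZT4 were 359, 421 and 389 CPM, also above CON. At ZT16 males had 357, 385, 338 and 425 CPM, where replicate 3 lay within the CON range. The mean log2 fold change of Hadha was 0.31 ± 0.06 (SE, adjusted p = 1.81e-04). Eci1 was 162, 207, 132 and 272 CPM in males at ZT16, where the lowest library lay within the CON range. Its log2 fold change was 0.54 ± 0.12 (SE, adjusted p = 0.00125). The other members that rose were Cpt1a (0.74), Ech1 (0.47), Ehhadh (0.34), Decr1 (0.32), Hadhb (0.31), Abcd3 (0.30), Acads (0.26), Acsl1 (0.23), Acaa1a (0.21) and Acadvl (0.17). Acadm was the one that fell (log2 fold change -0.22 ± 0.06 (SE), adjusted p = 0.0142).

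By stratum, IUGR-HFhf called 0 members in males at ZT4 (0.462% of all genes), where 7 had an unadjusted p under 0.05 and DESeq2 called 2. In males at ZT16 it called 5 (3.31%): Fabp1, Acsl1, Acadl, Abcd3 and Acaa1b. Fabp1 was 2719, 3191, 2571 and 2666 CPM there against 1419, 1199 and 1166 CPM in CON, without overlap (log2 fold change 1.14 ± 0.32 (SE), adjusted p = 0.0313), while its mean over strata was 0.32 (adjusted p = 0.196). Females had 1 at ZT4 (0.679%), which was Cpt1a, or 1 up and 1 down with library totals, and 4 at ZT16 (2.22%): Hadha, Etfdh, Acaa1b and Vnn1. The count in males at ZT16 fell to 1 without CON replicate 2, to 2 without CON replicate 1 or IUGR-HFhf replicate 2 or 4, and to 3 without IUGR-HFhf replicate 1. The female ZT4 call was lost without any 1 CON library or IUGR-HFhf replicate 4, and 2 members were called without IUGR-HFhf replicate 3. The female ZT16 count fell to 2 without any 1 of its CON libraries or IUGR-HFhf replicate 1, 2 or 4. In males at ZT4 1 member was called without IUGR-HFhf replicate 1. The 8 acinar markers summed to 502 and 1602 CPM in female ZT4 IUGR-HFhf replicates 2 and 3, against 2.52 and 10.96 CPM in replicates 1 and 4. Replicate 3 is not among the 4 libraries in doubt, and Cpa1 was 319 CPM of its sum. Summed hepatocyte markers were 221403 to 359228 CPM in IUGR-HFhf females and 190724 to 233146 CPM in males. The part of both in these results was not tested. No member differed between the sexes by the test, with 0.281% of all genes called, 4 members at an unadjusted p under 0.05 and 0 by DESeq2.

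Set directly against HFhf, IUGR-HFhf changed 0 of 34 members by edgeR and by DESeq2, 1 at an unadjusted p under 0.05, and 0.0543% of all genes. Log2 differences ran from -0.33 ± 0.47 (SE) for Abcd2 to 0.18 ± 0.13 for Acaa1b. For Hadha the difference was -0.03 ± 0.06, for Cpt1a -0.03 ± 0.16 and for Vnn1 -0.17 ± 0.16. A test that misses its threshold does not show that the groups are alike. The groups differ both in the calorie restriction and in when the HFhf diet began, which cannot be told apart.

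For HFhf the difference of effects between ZT16 and ZT4 was called for 3 members, Cpt1a, Crot and Ehhadh, against 0.670% of all genes. Clock genes, given below, differed between CON and HFhf in these groups too. Cpt1a, the gate of mitochondrial entry, was 322, 222 and 279.8 CPM in CON males at ZT4 and 711, 541 and 655 CPM in HFhf. Female ZT4 values were 142, 101 and 141 CPM and 333, 343 and 752 CPM. HFhf lay above CON without overlap in both sexes at ZT4. At ZT16 the male values were 417, 232 and 439 CPM in CON and 231, 186, 317 and 362 CPM in HFhf. The female values were 199, 227 and 352 CPM and 446, 202, 351 and 324 CPM, so the groups overlapped at ZT16 in both sexes. The log2 effect was 1.58 lower at ZT16 than at ZT4 (difference -1.58 ± 0.33 SE, adjusted p = 0.00806), and it stayed called when any 1 of the 26 libraries was left out.

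Crot, which moves medium-chain products of peroxisomes onto carnitine, went the other way. In males at ZT4 it was 429, 365 and 534 CPM in CON and 208, 270.1 and 265 CPM in HFhf. ZT4 females had 236, 278 and 246 CPM and 42.5, 105 and 133 CPM. HFhf was below CON without overlap in both sexes. At ZT16 males had 101, 47.8 and 111 CPM in CON and 92.6, 129, 194 and 176 CPM in HFhf. Females had 64.2, 36.7 and 39.3 CPM and 121, 44.9, 63.2 and 35.9 CPM, with overlap in both sexes. The difference of effects was 1.77 ± 0.40 (SE, adjusted p = 0.0177), called in 25 of 26 fits with 1 library left out and not without female ZT16 CON replicate 3 (adjusted p = 0.0522).

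Ehhadh, the peroxisomal bifunctional enzyme, was 548, 439 and 472 CPM in CON females at ZT4 and 233, 359.8 and 355 CPM in HFhf. In males at ZT16 it was 428, 448 and 478 CPM and 777, 526, 801 and 888 CPM. HFhf lay below CON in the first group and above it in the second. Males at ZT4 had 452, 526 and 404 CPM in CON and 512, 547 and 495 CPM in HFhf. Females at ZT16 had 497, 581 and 414 CPM and 810.2, 466, 755 and 658 CPM, and both of these pairs overlapped. The difference of effects was 0.81 ± 0.21 (SE, adjusted p = 0.0459), and it was called in 5 of 26 fits with 1 library left out. Without female ZT16 CON replicate 3, Cpt1a was the 1 member called. With library totals the split was 1 up and 1 down. Ppara had a difference of -0.68 that did not pass (adjusted p = 0.316).

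For IUGR-HFhf the same test called Cpt1a alone, against 0.643% of all genes. Cpt1a was 456, 854 and 813 CPM in males and 285, 224, 265 and 573 CPM in females at ZT4. At ZT16 it was 416, 396, 475 and 425 CPM and 369, 274, 213 and 139.8 CPM. ZT4 libraries were above all CON libraries of their sex and time, and ZT16 libraries overlapped with CON. The difference was -1.29 ± 0.33 (SE, adjusted p = 0.0496), called in 6 of 27 fits with 1 library left out. Crot and Ehhadh had 1.20 and 0.14 (adjusted p = 0.137 and 0.833).

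Clock genes moved with diet in the same groups. Dbp, a clock output gene, was 3.56, 4.49 and 6.47 CPM in CON males at ZT4 and 115, 60.2 and 106 CPM in HFhf. At ZT16 it was 139, 58.4 and 58.5 CPM in CON males and 14.7, 12, 18.01 and 10.97 CPM in HFhf. Arntl, a core clock gene that peaks opposite to Dbp, was 60.6, 54.5 and 48.6 CPM and 13.6, 20.5 and 13.3 CPM at ZT4 in those males. The CON and HFhf ranges were apart for both genes in these groups. In females at ZT4 Dbp was 3.61, 3.87 and 3.54 CPM in CON and 12.7, 13.8 and 73.2 CPM in HFhf, where replicate 3, highest in Dbp, was also highest in Cpt1a. In IUGR-HFhf at ZT4 Dbp was 24.9, 76.8 and 77.7 CPM in males and 102, 36.1, 7.83 and 57.7 CPM in females. The part of clock state in the results for Cpt1a, Crot and Ehhadh was not tested.

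**Figure D3:**
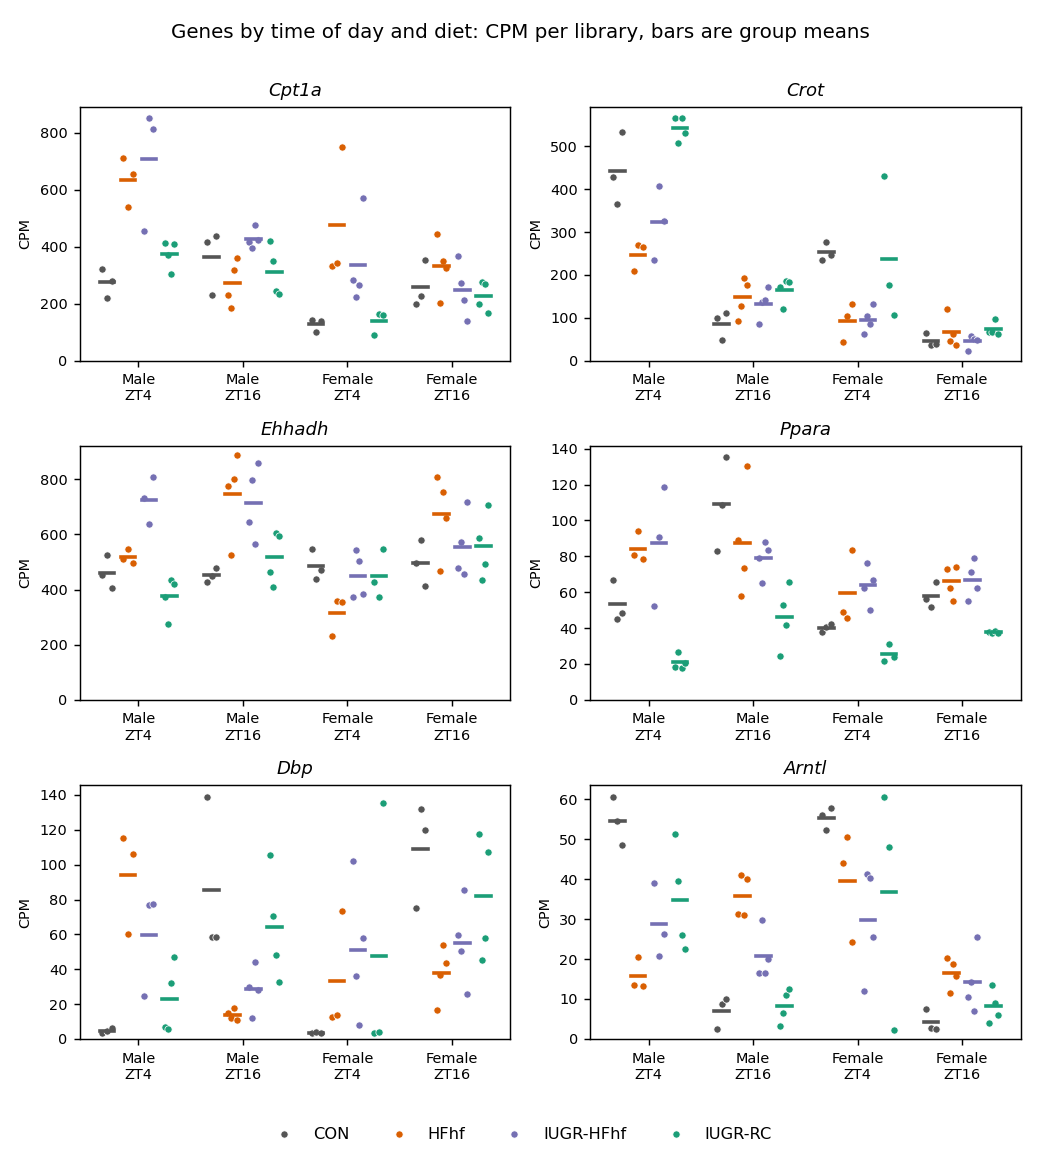
CPM in each library (points) with group means (bars) for Cpt1a, Crot, Ehhadh, Ppara and the clock genes Dbp and Arntl, by sex, time and diet. At ZT4 the HFhf libraries stand above CON for Cpt1a and Dbp and below it for Crot and Arntl.

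Times of day were also compared within each diet. In CON 3 members rose from ZT4 to ZT16 and 5 fell, against 13.2% of all genes. Crot had the largest F, falling from the ZT4 to the ZT16 values given above (log2 fold change -2.39 ± 0.30 (SE), adjusted p = 1.99e-07). Etfdh, the enzyme that hands electrons to ubiquinone, was 305, 284 and 347 CPM in CON males at ZT4 and 177, 183 and 205 CPM at ZT16. In females it was 228, 258 and 252 CPM and 148, 127 and 152 CPM. Times did not overlap in either sex (log2 fold change -0.76 ± 0.11 (SE), adjusted p = 2.83e-06).

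Bdh1, which interconverts the ketone bodies, was 328, 321 and 296 CPM in CON males at ZT4 and 210.2, 225 and 191 CPM at ZT16. In females it was 191, 177 and 171 CPM and 121, 108 and 103 CPM. It fell in both sexes without overlap (log2 fold change -0.65 ± 0.11 (SE), adjusted p = 1.84e-05). Pdk4, a kinase that holds back glucose oxidation, was 143, 113 and 187 CPM in males at ZT4 and 23.9, 55.4 and 74.8 CPM at ZT16. In females it was 206, 139.6 and 214 CPM and 51.4, 63.2 and 72.9 CPM, again without overlap (log2 fold change -1.55 ± 0.30 (SE), adjusted p = 2.94e-04). Crat fell too (-1.51).

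Ppara rose from ZT4 to ZT16 in CON. It was 66.7, 44.8 and 48.2 CPM at ZT4 and 82.8, 109 and 136 CPM at ZT16 in males, and 37.98, 40.5 and 42.1 CPM and 56.3, 51.8 and 65.7 CPM in females. The times were apart in both sexes (log2 fold change 0.78 ± 0.19 (SE), adjusted p = 0.00256). Cpt2 rose by 0.43. Cpt1a rose by 0.71 (adjusted p = 0.0456), a call lost without any 1 of the CON libraries other than male ZT16 replicate 2 and female ZT16 replicate 1, with an adjusted p of up to 0.173. Fabp1 did not pass (-0.30, adjusted p = 0.463).

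In HFhf 5 members rose and 3 fell, against 10.2% of all genes. Ehhadh (0.81), Decr2 (0.59), Acaa2 (0.58), Abcd3 (0.43) and Etfa (0.35) rose, and Cpt1a (-0.87), Bdh1 (-0.47) and Etfdh (-0.43) fell. Dbp in HFhf males was lower at ZT16 than at ZT4, opposite to CON, as the values above show, and the part of clock state in the comparisons of times within HFhf and IUGR-HFhf was not tested. In IUGR-HFhf 7 rose and 4 fell, against 25.7%. With library totals the split was 9 and 3. Fabp1 (0.65) and Abcd3 (0.52) were among those that rose, and Crot (-1.19), Pdk4 (-0.96), Cpt1a (-0.58) and Bdh1 (-0.42) fell. In IUGR-RC 7 rose and 2 fell, against 20%. Crot (-1.71) and Etfdh (-0.59) fell, and Ppara (0.85) and Acaa1a (0.49) were among those that rose. The IUGR-RC count was 4 without the 4 libraries in doubt and 5 without female ZT4 IUGR-RC replicate 2 alone.

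Males and females differed in the level of many members. In CON 13 were higher in males and 2 lower, against 16.2% of all genes. Bdh1 had the largest F: every male CON library exceeded every female one at the same time, by the values given above (log2 fold change 0.86 ± 0.11 (SE), adjusted p = 2.21e-08). Acadm was 660.2, 634 and 664 CPM in males and 418, 439.6 and 436 CPM in females at ZT4. At ZT16 it was 621, 516 and 512 CPM and 355, 415 and 429 CPM, apart at both times (log2 fold change 0.53 ± 0.09 (SE), adjusted p = 1.81e-05). Vnn1 was also higher in males (log2 fold change 1.29 ± 0.26 (SE), adjusted p = 3.08e-04), with the CON values given above. Males also had higher Ppara (log2 fold change 0.66 ± 0.19 (SE), adjusted p = 0.00905) and Cpt1a (0.79, adjusted p = 0.0191). The Cpt1a call was lost without any 1 of 5 CON libraries, males ZT4 replicate 1 and ZT16 replicate 3 and females ZT4 replicate 2 and ZT16 replicates 1 and 2, with adjusted p between 0.0503 and 0.0580. Fabp1 did not pass (-0.51, adjusted p = 0.14). Titles outside IUGR-RC number all males before all females, so a batch following these numbers cannot be told apart from sex. In CON at ZT4, 6.43 to 7.10 M reads were counted in males and 16.2 to 18.7 M in females. Summed hepatocyte markers were 174796 to 194286 CPM in CON males and 204270 to 253236 CPM in CON females. The part of depth and of these markers in the sex differences was not tested.

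Abcd2, a peroxisomal transporter of very-long-chain acyl-CoA, had the largest fold between sexes among the 34 in CON. In CON females it was 2.99, 1.35 and 1.01 CPM at ZT4 and 2.35, 17.4 and 2.22 CPM at ZT16. In CON males it was 0.285, 0.66 and 0.647 CPM and 0.787, 0.789 and 0.914 CPM. Female libraries varied widely, while male ones were near the floor of detection, and 2 male libraries outside CON had 0 reads. The log2 difference of males against females was -2.39 in CON, -3.90 in HFhf, -3.95 in IUGR-HFhf and -4.32 in IUGR-RC, called in each. These fitted values depend on few reads in males.

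Crot, Hadh, Bdh1, Acaa1b and Decr2 were higher in males in each of the 4 diets. HFhf had 6 members higher in males and 4 lower, against 20.2% of all genes, or 13 and 3 with library totals. IUGR-HFhf had 12 and 3, against 15.1%, and IUGR-RC 15 and 3, against 30.4%, or 11 in all without the 4 libraries in doubt. Etfb, an electron carrier subunit, was lower in males in CON (-0.43), HFhf (-0.54) and IUGR-HFhf (-0.34). Vnn1 had 0.03 in HFhf (adjusted p = 0.953), where females had reached 20.6, 23.8 and 45.8 CPM at ZT4 and males 28.4, 30.4 and 31.95 CPM.

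**Figure D4:**
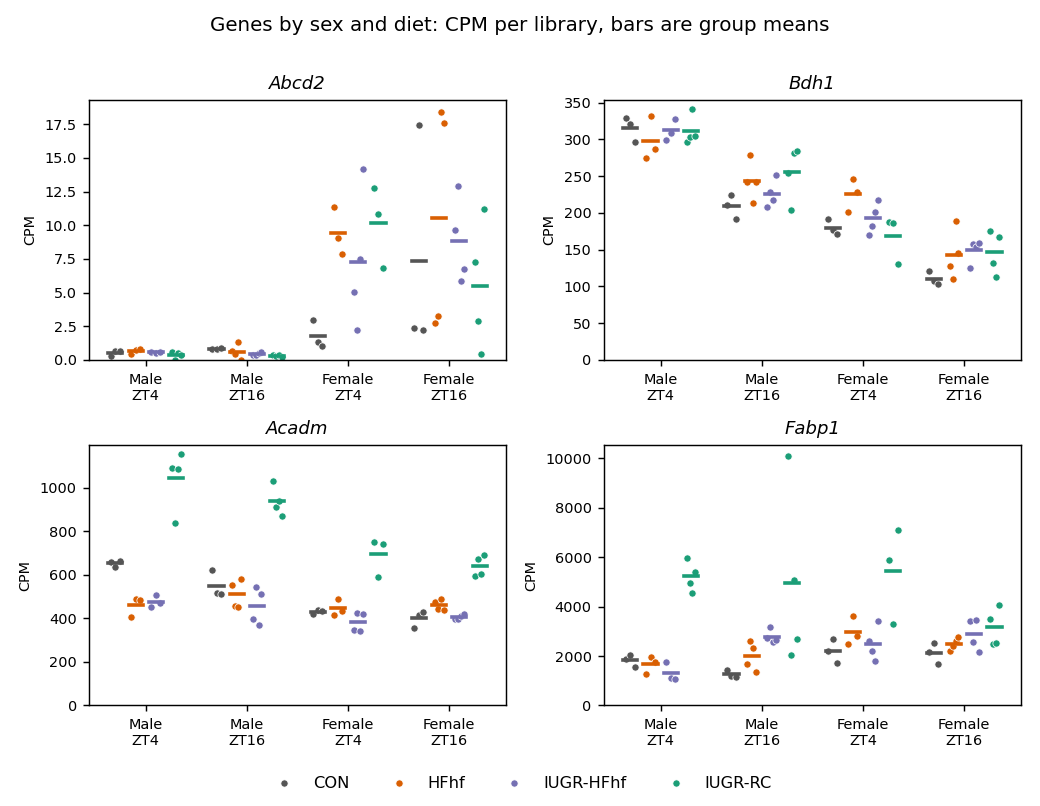
CPM in each library (points) with group means (bars) for Abcd2, Bdh1, Acadm and Fabp1, by sex, time and diet. Abcd2 lies near 0 in males, Bdh1 is higher in males in every diet, and the means of Acadm and Fabp1 are highest in IUGR-RC in each sex and time.

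IUGR-RC offspring came from calorie-restricted dams returned to chow. Against CON 25 members rose and 1 fell as the mean of strata, beside 62.9% of all genes, so a call here says little about these genes in particular. Without the 4 libraries in doubt 27 were called. Fabp1 was 5977, 4963, 4560.2 and 5388 CPM in males at ZT4 against 1884, 2023 and 1571 CPM in CON, and 10076, 2060.2, 5059.6 and 2686 CPM at ZT16. In females it was 5886, 3312 and 7084 CPM at ZT4 and 3517, 2489.7, 2534 and 4084 CPM at ZT16. It was above CON in males at both times and in females at ZT4 (log2 fold change 1.34 ± 0.16 (SE), adjusted p = 8.85e-10).

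The 3 electron transfer genes Etfa (1.15), Etfb (0.93) and Etfdh (0.47) were among those that rose in IUGR-RC. Acadm, which HFhf and IUGR-HFhf did not raise, was 1089.8, 838, 1086 and 1153 CPM in males at ZT4 (log2 fold change 0.70 ± 0.06 (SE), adjusted p = 1.46e-13). Ppara was the one that fell. It was 18.3, 26.5, 17.9 and 20.5 CPM in males and 21.6, 31.2 and 23.8 CPM in females at ZT4, and 24.2, 52.8, 41.4 and 65.5 CPM and 37.5, 37.4, 38.4 and 37.1 CPM at ZT16. All lay below CON of the same sex and time (log2 fold change -0.98 ± 0.13 (SE), adjusted p = 5.33e-09). Cpt1a (0.04), Ehhadh (-0.01) and Acsl1 (-0.03) did not pass.

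The IUGR-RC effect differed between times for Pdk4 alone (difference of log2 effects 1.45 ± 0.40 SE, adjusted p = 0.0397), against 2.79% of all genes, and this was called in 10 of 27 fits with 1 library left out. It was not called without the 4 libraries in doubt (adjusted p = 0.110). No member differed between sexes, with 0% of all genes called, 5 members at an unadjusted p under 0.05 and 0 by DESeq2. Macrophage markers summed to 639 to 1242 CPM in IUGR-RC and 489 to 749 CPM in CON. Summed hepatocyte markers were 203391 to 475785 CPM in IUGR-RC and 174796 to 253236 CPM in CON, and the acinar sum in IUGR-RC females was 154 to 398 CPM. Their part in the result was not tested. With library totals in place of TMM scaling the IUGR-RC split became 17 rises and 4 falls, and the median of all genes moved to -0.23.

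In each library the 34 genes were also averaged. Taking each library's mean log2 deviation from the CON libraries of its sex and time, all HFhf, IUGR-HFhf and IUGR-RC libraries were above 0, the lowest being male ZT4 HFhf at 0.0055. Medians by group ran from 0.102 in IUGR-HFhf females at ZT4 to 0.547 in IUGR-RC males at ZT16. CON libraries, each against the others of its group, ran from -0.24 to 0.23. This is a description of chosen genes, with no test. Libraries of a sex and time are all set against the same CON libraries, so their deviations are not separate observations. The deviations rest on TMM scaling, and none was computed over all genes. Those of IUGR-RC cannot be told apart from a batch.

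**Figure D5:**
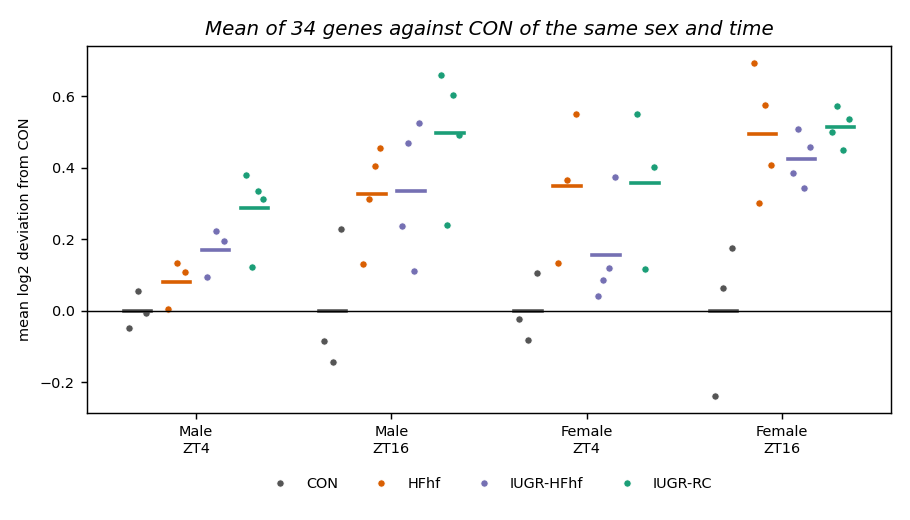
Mean log2 deviation of the 34 genes from CON of the same sex and time (y) for each library (points), with group means (bars). CON libraries, compared with the others of their group, scatter around 0, and libraries of the other diets lie above it.

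Beyond the 34, 112 genes of the wider pathway in 6 lists were counted, of which 104 were tested. HFhf raised 16 and lowered 6, beside the 7.94% of all genes. In uptake and storage 5 of 17 rose, including the lipid droplet coats Plin2 (1.03) and Plin5 (0.68) and the transporter Slc27a2 (0.22). Of 17 PPAR partners and hormones 2 rose, Fgf21 (2.07), a fasting hormone, and Creb3l3 (0.20). Acot2 (1.06) and Acaca (0.76), which makes malonyl-CoA, the inhibitor of CPT1A, were the 2 of 9 entry genes that rose.

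A list of other mitochondrial enzymes and related genes split 3 up and 3 down of 13 for HFhf. The thiolase Acat1 (0.38) was among those that rose, and Acadsb (-0.43), Bdh2 (-0.39) and Slc16a7 (-0.37) fell. Of 40 peroxisomal genes 4 rose, led by Acot4 (0.91), Pxmp4 (0.43) and Acot3 (0.50), and 2 fell, Cat (-0.26) and Amacr (-0.45). Of 8 omega oxidation genes Cyp4a8 fell (-1.58). With library totals in place of TMM scaling the split over all 104 was 9 up and 15 down, so the split rests on the scaling.

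IUGR-HFhf raised 15 of the 104 and lowered 5, beside 10.5% of all genes, or 11 and 11 with library totals. Acaca (1.05), Acot2 (0.80) and Acacb (0.54) rose among entry genes. Plin2 (0.92), Acsl5 (0.62) and the fatty acid translocase Cd36 (1.18) led the 4 storage genes that rose. Fgf21 (1.60) and Ppargc1a (0.59) rose and Pparg fell (-0.84). IUGR-HFhf against HFhf called 0 of the 104 by edgeR and by DESeq2.

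In IUGR-RC 45 rose and 22 fell, beside 62.9%, or 22 and 39 with library totals. These calls say little about the pathway in particular, and a batch cannot be told apart from the treatment. The co-regulators Ncoa2 (-1.26), Ncoa1 (-0.88) and Ncor1 (-0.75) led the 9 partners that fell. From ZT4 to ZT16 in CON 9 rose and 11 fell, beside 13.2%, or 10 and 9 with library totals, with Ppard (-2.26), Angptl4 (-1.54) and Plin2 (-1.26) among the falls and Phyh (0.76) among the rises. Between sexes in CON 12 were higher and 14 lower in males, beside 16.2%, with Cyp4a8 (3.83) higher and Cd36 (-4.16) and Acot5 (-3.48) lower.

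The authors' deposited tables compare each diet with CON in each stratum. In females at ZT16 the authors' deposited table for HFhf listed 10 of the 34 with an adjusted p under 0.05, all higher, and these included the 8 called here. In males at ZT4 the authors' deposited table listed 1 higher and 1 lower. The sign of the fold change was the same for 33 or 34 of the 34 members in each of the 12 deposited tables. Those tables rest on the same libraries, so the match is no independent check.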

How the data were processed

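RNA was measured in 56 rat liver libraries. The libraries were stranded, with ribosomal RNA removed, and sequenced on an Illumina HiSeq, per the labels' protocols, although the molecule label reads polyA RNA. The submitters' processing notes name FastQC, STAR, Subread, featureCounts, DESeq2 and the build rn6; the strand setting of the counting is not given in the sources used here. The authors deposited whole-number read counts per gene for 17337 genes, and 12 tables with log2 fold changes and adjusted p-values of their own comparisons. The counts table has no sample columns outside the series.

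Counts were fitted in edgeR 4.0.16 (R 4.3.3, limma 3.58.1) by the quasi-likelihood test with TMM scaling, robust dispersion and 1 mean per group over all 56 libraries, after filterByExpr. The mean of strata averages the 4 combinations of sex and time. P-values were adjusted by Benjamini-Hochberg over the 11047 genes of each comparison, with 0.05 as threshold. CPM are on TMM-scaled library sizes, and deviations use log2(CPM + 0.5). No libraries of a group agreed within sampling noise: the lowest chi-square per degree of freedom between any pair was 9.40. On simulated data for HFhf against CON as the mean of strata, over 10797 genes, 55.2% of genes changed 1.25-fold, 80.6% changed 1.5-fold and 98.5% changed 2-fold were recovered. For male ZT4 alone the shares were 7.46%, 25.4% and 68.2%. The changed genes were drawn only from genes above a floor of expected reads, so the shares do not cover low-count genes such as Abcd2. Apart from these changes every group had the mean of the CON libraries, without differences of sex, time or cell mix.

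The members and gene lists were chosen with earlier results of these data known. Genes given per library were the 5 with the largest F for each of HFhf and IUGR-HFhf, the 4 for time and 3 for sex in CON, and Ppara, Cpt1a and Fabp1. Up to 3 genes per direction with the smallest p were eligible for naming from each pathway list. Some eligible genes are not reported here. Crot, Ehhadh and Pdk4 beyond that rule, Abcd2, the Acadvl promoter and the shared promoter of Hadha and Hadhb were chosen after their values were seen. Promoters came from RefSeq, GRCr8, which is not the build of the counts, for 29 of 34 members. Alternatives were RLE or library-total scaling, no filter, leaving out libraries, fitting only the groups compared, and DESeq2 1.42.0.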

Additional observations from a re-analysis of the deposited data

Results flagged for a closer look

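Within groups of 4 libraries, 5 of 112 sets of values for 14 genes had 1 library far from the other 3, and chance alone flags about 5% of such sets. In replicate 1 of female ZT16 IUGR-HFhf Bdh1 stood at 125.5 CPM, where the other 3 lay between 154 and 159 CPM. Crot was 97.7 CPM in female ZT16 IUGR-RC replicate 3 against 62.2 to 66.9 CPM. Ech1 was 209 CPM in female ZT16 HFhf replicate 1 against 121 to 134 CPM. Eci1 was 127 CPM in male ZT16 IUGR-RC replicate 2 against 231 to 233 CPM. Hadha was 364 CPM in female ZT16 IUGR-RC replicate 4 against 339.5 to 340.1 CPM.

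Effects that differed between ZT16 and ZT4 by the edgeR test were Cpt1a for HFhf (-1.58 on the log2 scale, adjusted p = 0.00806), Crot for HFhf (1.77, adjusted p = 0.0177), Ehhadh for HFhf (0.81, adjusted p = 0.0459), Cpt1a for IUGR-HFhf (-1.29, adjusted p = 0.0496) and Pdk4 for IUGR-RC (1.45, adjusted p = 0.0397). Both Cpt1a differences use the same CON libraries.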

How the results depend on the processing

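No named change reversed under any alternative run. RLE scaling moved no count by over 1.5 times, and no alternative moved the total of pathway genes called by that much, although library totals changed its split into rises and falls. Counts within a stratum and differences between times were less stable, and the cause was not tested. For HFhf in males at ZT4 (1 call) there were 0 without the filter, 2 with only the groups compared and 2 with DESeq2. In males at ZT16 (1) there were 0 without the 4 libraries in doubt, 2 without IUGR-RC and 3 with DESeq2. In females at ZT4 (4) there were 2 without the filter and 7 with DESeq2, and at ZT16 (8) there were 4 with library totals, 5 without the filter and 2 with only the groups compared. The test of a sex difference in the HFhf effect (0) became 2 with DESeq2. For IUGR-HFhf, males at ZT4 (0) had 1 with only the groups compared and 2 with DESeq2, and males at ZT16 (5) had 10 without IUGR-RC and 8 with DESeq2. Females at ZT4 (1) had 2 with library totals, 2 without the libraries in doubt, 2 with only the groups compared and 4 with DESeq2. Its time difference (1) became 0 without the filter, 3 without IUGR-RC, 3 with only the groups compared and 2 with DESeq2. The IUGR-RC time difference (1) became 0 with library totals, without the filter, without the libraries in doubt and with only the groups compared. ZT16 against ZT4 in IUGR-RC (9) became 14 with library totals and 4 both without the libraries in doubt and with only the groups compared. Males against females became 16 in HFhf (10) and 23 in IUGR-HFhf (15) with library totals, and 11 in IUGR-RC (18) without the libraries in doubt.

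Leaving out 1 library at a time gave 13 to 19 calls for the HFhf mean, 14 to 17 for IUGR-HFhf and 24 to 27 for IUGR-RC. HFhf gave 0 to 1 and 0 to 2 in males at ZT4 and ZT16, 0 to 3 and 1 to 8 in females, and 1 to 3 for the time difference. IUGR-HFhf gave 0 to 1 and 1 to 7 in males, 0 to 2 and 2 to 4 in females, and 0 to 2 for the time difference. The IUGR-RC time difference gave 0 to 3, and ZT16 against ZT4 in IUGR-RC 5 to 12. The tests of whether a diet effect differed between sexes, and of IUGR-HFhf against HFhf, stayed at 0. Males against females gave 11 to 14 in CON, 8 to 13 in HFhf, 12 to 18 in IUGR-HFhf and 14 to 24 in IUGR-RC. Among single genes, the rise of Cpt1a in CON from ZT4 to ZT16 was not called without the filter or without IUGR-RC (0.71 both), and Fabp1 in CON was called between males and females without IUGR-RC (-0.52) and with only the groups compared (-0.51). With library totals the median log2 fold change of all genes was -0.23 for IUGR-RC, -0.15 and -0.14 for HFhf females at ZT4 and ZT16, 0.19 and 0.10 for males against females in HFhf and IUGR-HFhf, and 0.11 for the difference of HFhf effects between sexes. Depth limits Abcd2 in males, where few reads stand behind each value. No paired analysis was possible because the labels give no replicate numbers shared between groups.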
